A study of Mus musculus with 32 samples.

Results

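Cholesterol and fatty acids are built from the same precursor, cytosolic acetyl-CoA, by 2 sets of enzymes. From the 55289 named genes of each deposited table, 38 genes of these sets were taken by their symbols. The list was chosen with earlier results of these data known, so its tallies are descriptions. Of the 38 members, 21 belong to the sterol branch, which runs from the condensation of acetyl-CoA through mevalonate, squalene and lanosterol to cholesterol, and includes regulators and a transporter of sterols. The other 17 belong to the fatty acid branch, which supplies acetyl-CoA and NADPH, builds palmitate, elongates and desaturates it and passes it into triglycerides. All 38 symbols were found in all 5 tables. The branches are given apart throughout.

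The series compared mice deficient in Ftsj1 (labelled Ftsj1_DF) with wild-type mice (WT) by degradome sequencing. The product of Ftsj1, an X-linked gene, methylates tRNA. The labels do not describe the deficient allele further. All 14 mice were untreated males aged 4 months that were fed ad libitum until they were killed, and all libraries carry the label of a single batch. Brain, heart, kidney and liver came from the same 6 mice, with 3 Ftsj1_DF and 3 WT libraries per organ. Spleen came from 8 other mice, with 4 libraries per genotype. Brothers of both genotypes were used, so the 32 libraries are not all from unrelated mice.

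In the liver, the sterol branch is controlled by the transcription factor SREBP-2 (Srebf2) and the fatty acid branch by SREBP-1c (Srebf1) and ChREBP (Mlxipl). SREBPs are held in the endoplasmic reticulum by Insig proteins when sterols are plentiful and are released and cleaved when sterols are scarce. Feeding and insulin raise the fatty acid branch in hepatocytes. In the brain, cholesterol is made locally, with a large demand from myelin.

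The assay ligates and counts, as short tags, the free ends of polyadenylated RNA that lacks a cap, starting from 5 ug of total RNA per library. A value is therefore a number of such ends and does not give the level of the intact transcript. The deposited tables hold, per organ and gene, a mean normalized count over all libraries, a log2 fold change and its standard error (SE), and no value per library. The means of a table summed to between 48536401 (kidney) and 73405489 (brain-named) normalized counts, which is the only depth the tables show. No header says which genotype is on top of the fold change. It is read here as Ftsj1_DF over WT, because Ftsj1 itself was negative in all 5 tables. In the authors' deposited tables, the log2 fold change of Ftsj1 was -2.84 ± 0.38 in the brain-named, -3.38 ± 0.59 in the liver-named and -3.17 ± 0.77 (SE) in spleen, and each passed an adjusted p of 0.05 in the DESeq2 test. It was -1.72 ± 1.03 in the heart and -1.56 ± 0.61 (SE) in the kidney in the authors' deposited tables, where the adjusted p was 0.594 and 0.202 in the DESeq2 test.

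The organ names of 2 tables go against their content. In the table named for brain, the 10 hepatocyte markers had a median of 1123 tags per 1000000 of the summed means, against 9.53 or less in any other table, and Alb, which encodes albumin, made up 22.3% of the sum. In the table named for liver, 8 neuron markers had a median of 236 and 8 oligodendrocyte markers a median of 311 tags per 1000000, against 2.92 or less elsewhere. These are called the brain-named and the liver-named table here, and no organ is assigned to them. Heart, kidney and spleen tables held the markers of cardiomyocytes, proximal tubule and B cells at their highest medians, 1666, 808 and 76.4 tags per 1000000. The spleen table also held pancreatic acinar markers at a median of 8377 tags per 1000000.

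Promoter sequences are shown for the members that the comparisons turn on: Thrsp and Lss, which fell in the brain-named table, Fasn, whose genotype difference was unlike in 2 tables, and Hmgcs1 and Insig1 as sterol-branch examples with further motifs. The 250 bases before the transcription start are given 5' to 3' from RefSeq on the build GRCm38.p6, at chr7:97417551-97417800 (minus strand), chr10:76531355-76531604 (plus strand), chr11:120824548-120824797 (minus strand), chr13:119690101-119690350 (plus strand) and chr5:28071162-28071411 (plus strand). Capitals mark CCAAT on either strand (ATTGG on the other strand), the sterol-response-like TCACNCCAC and the E-box CACGTG. The CCAAT box is bound by NF-Y and the GC box GGGCGG by Sp1, factors known to act beside SREBPs at promoters of these genes. E-boxes are bound by basic helix-loop-helix factors.
Thrsp: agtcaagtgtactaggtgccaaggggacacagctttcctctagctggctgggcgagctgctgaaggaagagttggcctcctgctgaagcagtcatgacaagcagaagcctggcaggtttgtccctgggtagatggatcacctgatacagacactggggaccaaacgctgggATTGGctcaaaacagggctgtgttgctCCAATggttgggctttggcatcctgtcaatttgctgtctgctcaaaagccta
Lss: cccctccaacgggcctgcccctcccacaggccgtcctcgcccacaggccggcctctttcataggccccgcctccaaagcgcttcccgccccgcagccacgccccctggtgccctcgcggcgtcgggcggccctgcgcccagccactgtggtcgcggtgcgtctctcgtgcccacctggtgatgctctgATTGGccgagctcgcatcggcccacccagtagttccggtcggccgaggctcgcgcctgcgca
Fasn: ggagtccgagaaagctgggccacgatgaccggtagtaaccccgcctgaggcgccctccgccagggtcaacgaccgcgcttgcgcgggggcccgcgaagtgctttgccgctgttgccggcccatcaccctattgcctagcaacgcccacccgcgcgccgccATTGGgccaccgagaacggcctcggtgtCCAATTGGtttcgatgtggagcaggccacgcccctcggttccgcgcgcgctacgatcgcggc
Hmgcs1: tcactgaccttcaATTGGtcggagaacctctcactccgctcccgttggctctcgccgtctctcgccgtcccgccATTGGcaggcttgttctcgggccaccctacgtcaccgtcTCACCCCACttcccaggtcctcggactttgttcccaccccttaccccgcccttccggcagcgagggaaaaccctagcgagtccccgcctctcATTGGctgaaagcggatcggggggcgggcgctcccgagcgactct
Insig1: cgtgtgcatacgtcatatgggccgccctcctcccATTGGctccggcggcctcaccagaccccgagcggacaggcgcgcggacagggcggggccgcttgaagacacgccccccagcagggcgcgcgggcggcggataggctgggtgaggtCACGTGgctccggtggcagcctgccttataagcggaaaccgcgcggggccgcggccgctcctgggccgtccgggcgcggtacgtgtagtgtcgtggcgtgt

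The windows shown hold CCAAT on one strand or the other in all 5 cases. Among the members with an entry in the RefSeq promoter table, 17 of the sterol and 13 of the fatty acid branch, CCAAT on either strand was present in 16 of 17 sterol members and in 9 of 13 fatty acid members. Of all 27025 genes with an entry, 37.5% had it, and of the 8722 genes with a mean of at least 100 in the brain-named table, 40.0% had it. The GC box GGGCGG, searched on both strands and not capitalised, was present in 16 of 17 sterol and 7 of 13 fatty acid members, against 35.4% of all genes and 62.0% of those with a mean of at least 100. CACGTG, whose reverse complement is itself, was found in 4 sterol members (Hsd17b7, Sc5d, Dhcr7 and Insig1) and 2 fatty acid members (Elovl5 and Mlxipl). Of all genes 6.86% had it, and of those with a mean of at least 100, 9.91%. TCACNCCAC on either strand was found in Hmgcs1 and Mlxipl, 1 member of each branch, against 1.22% of all genes and 1.31% of those with a mean of at least 100. A gene with several windows was counted where any of them held the motif. In Fasn, 2 CCAAT matches on opposite strands overlap. The windows of 8 members, Fdps, Stard4, Scd1, Dgat2, Fads1, Scd2, Sqle and Fdft1, were not analysed here.

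Tags from the members were most abundant in the brain-named table. The sterol branch took 0.374% of the summed means of the brain-named, 0.0479% of the heart, 0.158% of the kidney, 0.198% of the liver-named and 0.0599% of the spleen table. The fatty acid branch took 1.19%, 0.184%, 0.392%, 0.239% and 0.0681% in the same order of tables. The tables were normalized separately, and the levels have no spread over libraries, so the order of levels across tables is a description.

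Of the 21 sterol members, 13 had their highest level in the brain-named table and 17 had their lowest in the heart table. Fdps, which makes farnesyl pyrophosphate, stood at 451 tags per 1000000 in the brain-named and at 29.1 in the liver-named table, the next highest. Sc5d, a desaturase of the last steps to cholesterol, stood at 206 tags per 1000000 in the brain-named and 14.6 in the liver-named table. The order differed for other members. Mvk (mevalonate kinase), Fdft1 (squalene synthase) and Srebf2 were highest in the liver-named table, and Hmgcs1 (HMG-CoA synthase), Mvd, Cyp51, Nsdhl and Stard4 were highest in the kidney table.

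Of the 17 fatty acid members, 12 were highest in the brain-named table, led by Scd1, a stearoyl-CoA desaturase. Scd1 stood at 5656 tags per 1000000 in the brain-named, 95.8 in heart, 833 in kidney, 197 in the liver-named and 140.3 in spleen. Thrsp, a small protein that promotes lipogenesis, stood at 1684 tags per 1000000 in the brain-named, 286 in heart, 535 in kidney, 157 in the liver-named and 48.5 in spleen. Fasn, the fatty acid synthase, was spread more evenly, with 1153 tags per 1000000 in the brain-named, 222 in heart, 1069 in kidney, 755 in the liver-named and 212 in spleen. The exceptions were Acacb, the mitochondrial acetyl-CoA carboxylase, at 593 tags per 1000000 in heart against 129 in the brain-named table, Scd2, a second stearoyl-CoA desaturase, at 315 in the liver-named table, Me1 (malic enzyme) at 401 in kidney, and Acaca and Pnpla3, also highest in kidney.

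A few abundant genes set much of each sum, so the order was recomputed. With the 100 highest genes of each table left out, 17 sterol and 14 fatty acid members were highest in the brain-named table, and with median-of-ratios scaling 19 and 14 were. Heart remained the table with the most sterol minima under both, with 16 and 15 of 21. Acacb was highest in heart and Scd2 in the liver-named table under all 3 scalings.

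**Figure D1:**
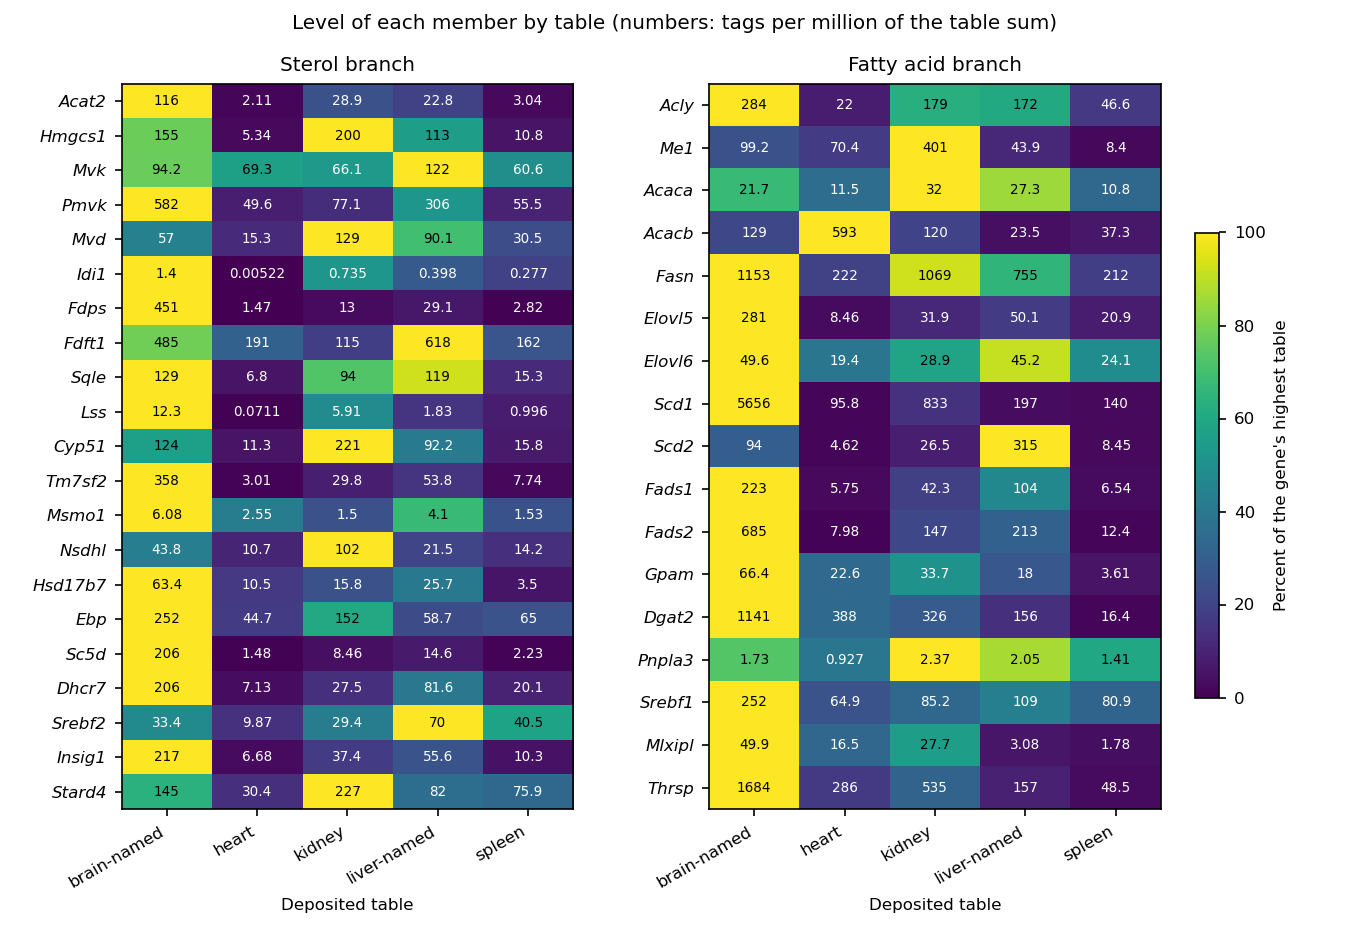
Level of each member in each table, in tags per 1000000 of that table's summed means (numbers), with colour as the percent of the gene's own highest table, sterol branch and fatty acid branch apart. Most rows are brightest in the brain-named column, while Acacb is brightest in heart and Scd2 in the liver-named column.

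The genotype comparison asked which members differed between Ftsj1_DF and WT mice. In the brain-named table, 2 members passed the threshold of an adjusted p of 0.05 and both fell, Thrsp in the fatty acid branch and Lss, the lanosterol synthase, in the sterol branch. In the heart table Sqle, the squalene epoxidase, fell. No member passed in the kidney, liver-named or spleen table, and no member passed on the higher side in any table. The share of all tested genes that passed in either direction was 0.414% for the brain-named, 1.19% for the heart, 2.07% for the kidney, 0.203% for the liver-named and 0.217% for the spleen table, so 2 of 38, 1 of 36, 0 of 38, 0 of 38 and 0 of 37 tested members are to be read against these. At an unadjusted p under 0.05 in the DESeq2 test, 0 members were lower and 5 higher in kidney, against 5.67% and 6.24% of all genes. In the liver-named table, 1 was lower and 1 higher, against 5.88% and 4.48%, and in spleen 0 were lower and 0 higher, against 3.35% and 2.62%.

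Where a mean per genotype is given below, it was computed from the deposited mean and fold change, taking the libraries as equally divided between the genotypes and the fit as holding genotype alone. It is an implied mean in normalized counts with no spread over libraries. In bulk tissue, fewer cells of a type and less RNA per cell cannot be told apart. The error of each comparison is the authors' SE, and whether the libraries of both genotypes overlapped cannot be seen from the tables.

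**Figure D2:**
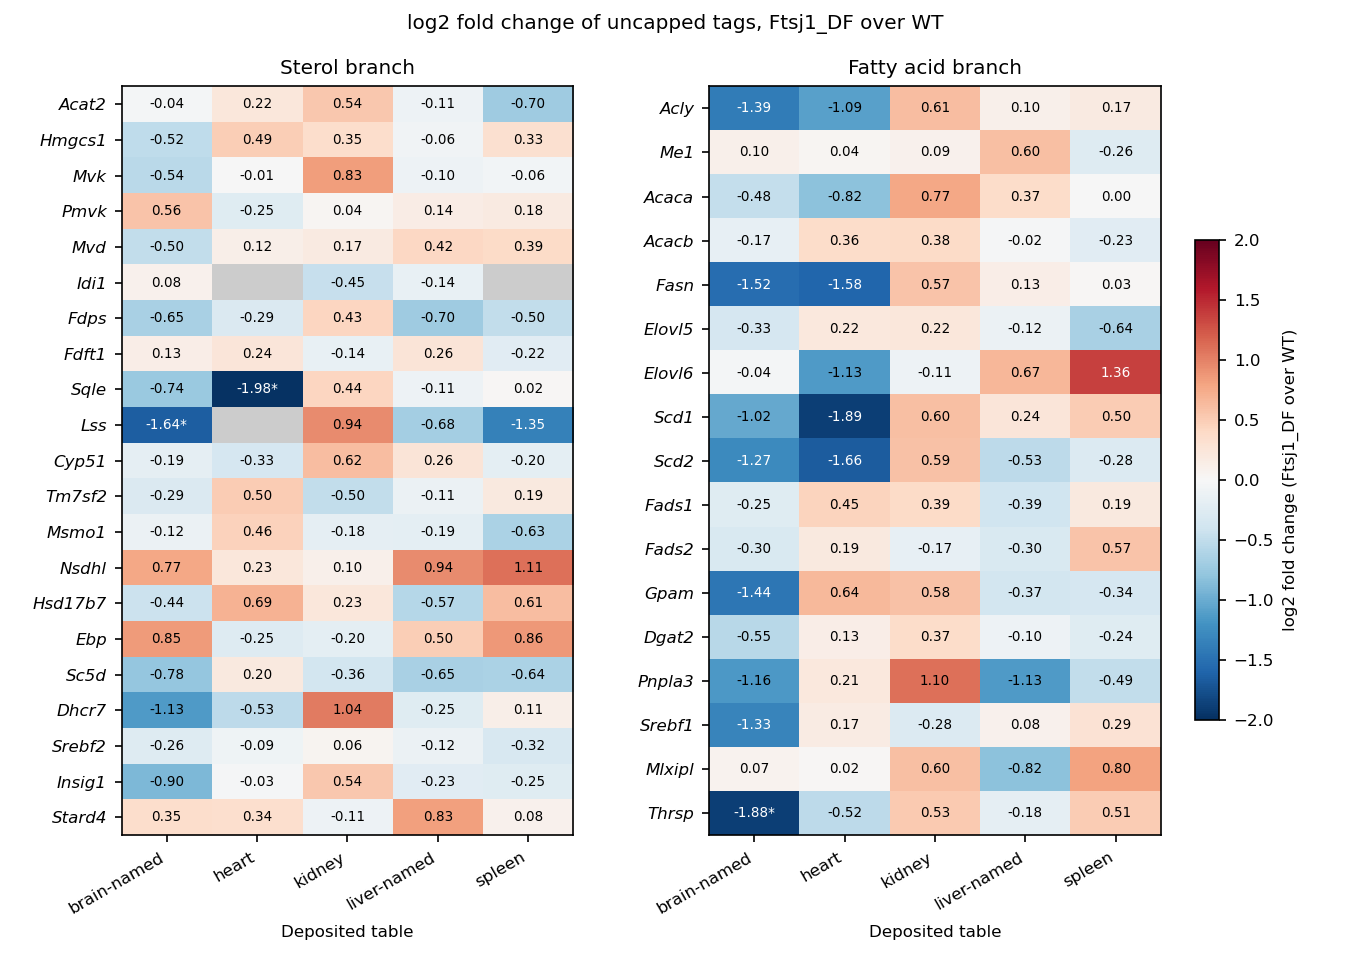
Log2 fold change of every member, Ftsj1_DF over WT, in the 5 tables, with the fatty acid and sterol branches apart; an asterisk marks an adjusted p of 0.05 or less and grey a member with no adjusted p. The brain-named column is mostly negative in the fatty acid branch, the kidney column mostly positive, and asterisks stand on Thrsp, Lss and Sqle alone.

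In the brain-named table, tags of the fatty acid branch were lower in Ftsj1_DF as a group of values. Of 17 tested members, 15 had a negative and 2 a positive log2 fold change, with a median of -0.55, whereas the median of all 17619 tested genes was 0.04 and 46.7% of them were negative. Thrsp alone passed the threshold, and 8 members were lower at an unadjusted p under 0.05, a share of all genes of 2.82% in that direction. The implied means of the branch summed to 570818 in Ftsj1_DF and 1171826 in WT. The share of all tested genes that passed the threshold on the lower side was 0.0795%.

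Thrsp had an implied mean of 52963 in Ftsj1_DF and 194270.0 in WT. In the authors' deposited table for brain its log2 fold change was -1.88 ± 0.41 (SE), with an adjusted p of 0.00723 in the DESeq2 test. That places Ftsj1_DF at 27.3% of WT, with a 95% interval of 15.6% to 47.5%. Thrsp was thus lower by more than its error, and it had the lowest fold change of all 38 members in that table. With the Wald statistic rescaled to its robust spread the adjusted p of Thrsp was 0.0955, which ends the call.

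Fasn and Acly were also negative. Fasn had implied means of 43801 in Ftsj1_DF and 125403 in WT, and its log2 fold change in the authors' deposited brain-named table was -1.52 ± 0.44 (SE), with an adjusted p of 0.0807 in the DESeq2 test. Acly, the ATP citrate lyase that makes cytosolic acetyl-CoA, had implied means of 11494 in Ftsj1_DF and 30140.1 in WT, a log2 fold change of -1.39 ± 0.43 (SE) in the authors' deposited brain-named table and an adjusted p of 0.111 in the DESeq2 test. Neither passed the threshold over all genes, although both 95% intervals lay below 0. The other members of these steps were closer to 0. The log2 fold change of Acaca, the cytosolic acetyl-CoA carboxylase, was -0.48 ± 0.35, that of Acacb -0.17 ± 0.49 and that of Me1 0.10 ± 0.40 (SE) in the authors' deposited brain-named table.

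Of the desaturases and elongases, the 2 stearoyl-CoA desaturases were the lowest. Scd1 had implied means of 273725 in Ftsj1_DF and 556625 in WT, a log2 fold change of -1.02 ± 0.47 (SE) in the authors' deposited brain-named table and an adjusted p of 0.370 in the DESeq2 test. Scd2 had implied means of 4041 in Ftsj1_DF and 9763 in WT, with a log2 fold change of -1.27 ± 0.54 (SE) in the authors' deposited brain-named table. Scd1 and Scd2 are close paralogs with neighbours of like sequence, and how the authors counted shared tags is not given in the sources used here. The elongases Elovl5 and Elovl6 and the desaturases Fads1 and Fads2 lay between -0.33 and -0.04 in the authors' deposited table, within 1 SE or little more.

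In glycerolipid synthesis, Gpam, the mitochondrial glycerol-3-phosphate acyltransferase, had implied means of 2625 in Ftsj1_DF and 7119 in WT. Its log2 fold change in the authors' deposited brain-named table was -1.44 ± 0.41 (SE), with an adjusted p of 0.0800 in the DESeq2 test. Pnpla3, a lipid droplet protein, had implied means of 78.7 in Ftsj1_DF and 175 in WT, and Dgat2, which makes triglycerides, 68045 in Ftsj1_DF and 99424 in WT. Their log2 fold changes in the authors' deposited brain-named table were -1.16 ± 0.49 and -0.55 ± 0.37 (SE), and neither passed. The regulators differed in value: Srebf1 had implied means of 10559.7 in Ftsj1_DF and 26467 in WT, and Mlxipl 3754 in Ftsj1_DF and 3569 in WT. In the authors' deposited brain-named table the log2 fold change was -1.33 ± 0.46 for Srebf1 and 0.07 ± 0.44 (SE) for Mlxipl, with adjusted p of 0.171 and 0.986 in the DESeq2 test.

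The sterol branch in the brain-named table was less one-sided. Of 21 tested members, 15 were negative and 6 positive, the median log2 fold change was -0.29, and 4 members were lower and 1 higher at an unadjusted p under 0.05, against 2.82% and 8.03% of all genes. The implied means summed to 258699 in Ftsj1_DF and 290037 in WT. The 3 enzymes that make squalene and turn it into lanosterol had unlike values. Fdft1, the first, had a log2 fold change of 0.13 ± 0.40, Sqle, the second, -0.74 ± 0.42 and Lss, the third, -1.64 ± 0.44 (SE) in the authors' deposited brain-named table. Lss had implied means of 437 in Ftsj1_DF and 1364 in WT, or 32.1% of WT with a 95% interval of 17.6% to 58.5%, and an adjusted p of 0.0499 in the DESeq2 test. Its call lies at the threshold and is lost under 3 of the alternatives tried. One is a false discovery rate of 1%; in the others the adjusted p was 0.0912 when all genes with a p-value were adjusted together and 0.280 with the Wald statistic rescaled to its spread. It is kept over genes of mean 20 or more.

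Upstream, the 7 mevalonate enzymes had log2 fold changes from -0.65 (Fdps) to 0.56 (Pmvk) in the authors' deposited brain-named table, and 0 of the 7 had an unadjusted p under 0.05 in the DESeq2 test. Hmgcs1 had implied means of 9367 in Ftsj1_DF and 13389 in WT, with a log2 fold change of -0.52 ± 0.33 (SE) in the authors' deposited brain-named table. Downstream of lanosterol, Dhcr7, which reduces the last precursor to cholesterol, had implied means of 9477 in Ftsj1_DF and 20768 in WT. Its log2 fold change in the authors' deposited brain-named table was -1.13 ± 0.36 (SE), with an adjusted p of 0.125 in the DESeq2 test. Sc5d was also lower, at -0.78 ± 0.36, while Ebp, a sterol isomerase, was higher at 0.85 ± 0.42 and Nsdhl, a sterol dehydrogenase, at 0.77 ± 0.41 (SE) in the authors' deposited brain-named table. None of these passed the threshold.

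Among the sterol regulators, Insig1 had implied means of 11118 in Ftsj1_DF and 20701 in WT and a log2 fold change of -0.90 ± 0.38 (SE) in the authors' deposited brain-named table, with an adjusted p of 0.313 in the DESeq2 test. Srebf2 was at -0.26 ± 0.41 (SE) and Stard4, a cytosolic sterol carrier, at 0.35 ± 0.42 (SE) in the same authors' deposited table.

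Other genes of the pathways were read from lists that were chosen with earlier results of these data known. Of all tested genes in the brain-named table, 46.7% were negative. Of 12 tested genes of sterol synthesis and uptake outside the members, 11 were negative in the brain-named table, with a median log2 fold change of -0.72. Of 11 tested genes of lipogenesis outside the members, 10 were negative, with a median of -0.53. Of 10 tested genes of sterol efflux and LXR response, 6 were negative, with a median of -0.19. DESeq2 called 0 genes of the 3 lists in any of the 5 tables, where 0.203% to 2.07% of all tested genes passed. At an unadjusted p under 0.05 in the DESeq2 test, 4, 2 and 0 of them were lower in the brain-named table and 0 of each list were higher. The shares of all genes at that p were 2.82% lower and 8.03% higher. In the other 4 tables the medians of the 3 lists lay between -0.24 and 0.26.

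Markers of other cell types moved beside these values in the brain-named table. All 6 tested pancreatic acinar markers were positive, with a median log2 fold change of 3.95 and implied sums of 424948 in Ftsj1_DF and 32234 in WT. Of these, 1 passed the threshold, and Cela2a was at 0 in all 5 tables. The hepatocyte markers were positive in 7 of 10, with a median log2 fold change of 0.32, and 0 passed the threshold. Their implied sums were 22222776 in Ftsj1_DF and 13135173 in WT. Alb alone made up 16371074 of their summed mean of 17678975, so these sums mostly show that gene. Of the adipocyte markers, 4 of 6 tested were negative, with implied sums of 1401 in Ftsj1_DF and 1836 in WT. All 3 tested adrenal cortex markers were negative, with a median of -0.82 and implied sums of 278 in Ftsj1_DF and 805 in WT, and Cyp21a1 passed the threshold. Proximal tubule markers were positive in 7 of 8 and cardiomyocyte markers in 6 of 7, with medians of 0.48 and 0.40. Neuron markers were positive in 4 of 7, oligodendrocyte markers in 3 of 7 and B cell markers in 3 of 7. The medians of these last 3 lists were 0.10, -0.06 and -0.02. The part of any of these lists in the values of the members was not tested.

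**Figure D3:**
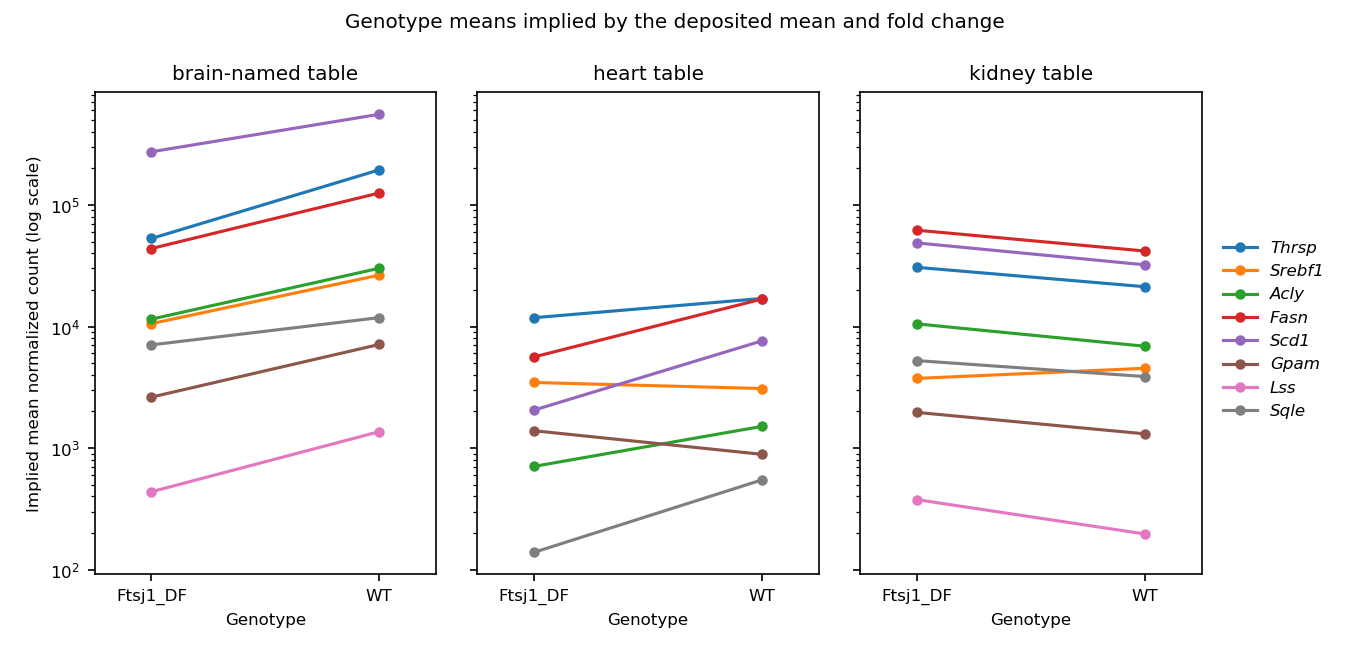
Implied mean normalized count of 8 members in Ftsj1_DF (left) and WT (right) in the brain-named, heart and kidney tables, on a log axis; lines join the genotypes, and Lss is not drawn in heart, where its mean is 3.59. All 8 lines are lower on the Ftsj1_DF side in the brain-named table, while in kidney only Srebf1 is.

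In the heart table, Sqle fell in Ftsj1_DF. Its implied means were 139 in Ftsj1_DF and 547 in WT, and the log2 fold change in the authors' deposited heart table was -1.98 ± 0.30 (SE), with an adjusted p of 2.94e-07 in the DESeq2 test. Ftsj1_DF stood at 25.4% of WT, with a 95% interval of 16.8% to 38.3%. Of all tested genes in the heart table, 0.771% passed on the lower side.

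The other 18 tested sterol members of the heart table lay between -0.53 (Dhcr7) and 0.69 (Hsd17b7) in the authors' deposited table, with 10 positive and 8 negative, and their branch median with Sqle was 0.12 against 0.01 for all genes. The enzymes on either side of Sqle give no parallel value. Fdft1 was at 0.24 ± 0.22 (SE) in the authors' deposited heart table, and Lss, with a mean of 3.59, had no adjusted p. Idi1, an isomerase of the mevalonate steps, was at a mean of 0.263 and was not tested either.

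The fatty acid branch in heart split by gene. Of 17 members, 7 were negative and 10 positive, with a median of 0.04, and 4 were lower at an unadjusted p under 0.05: Scd1, Fasn, Scd2 and Acly. The share of all genes lower at that p was 5.87%, and 0 members were higher at that p, against 4.76% of all genes. Scd1 had implied means of 2054 in Ftsj1_DF and 7611 in WT, a log2 fold change of -1.89 ± 0.69 (SE) in the authors' deposited heart table and an adjusted p of 0.180 in the DESeq2 test. Fasn had implied means of 5621 in Ftsj1_DF and 16813 in WT and a log2 fold change of -1.58 ± 0.70 (SE) in the authors' deposited heart table, with an adjusted p of 0.352 in the DESeq2 test. Scd2 was at -1.66 ± 0.81 and Acly at -1.09 ± 0.54 (SE) in the authors' deposited heart table. Acacb, the member most abundant in heart, had implied means of 33607 in Ftsj1_DF and 26159 in WT, with a log2 fold change of 0.36 ± 0.24 (SE) in the authors' deposited heart table. Gpam was at 0.64 ± 0.37, Srebf1 at 0.17 ± 0.36 and Mlxipl at 0.02 ± 0.38 (SE) in the authors' deposited heart table.

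Adipocyte markers were also mostly negative in the heart table. Of 7 tested adipocyte markers, 6 were negative, with a median log2 fold change of -2.09, 5 had an unadjusted p under 0.05 and 0 passed the threshold in the DESeq2 test. Their implied means summed to 11594 in Ftsj1_DF and 26379 in WT. All 10 hepatocyte markers were also negative, with a median of -0.81. Pancreatic acinar markers were negative in 7 of 7, neuron markers in 7 of 8 and proximal tubule markers in 6 of 8. Their medians were -0.49, -0.36 and -0.36. Cardiomyocyte markers were negative in 3 of 7, with a median of 0.00. The part of any of these lists in the values of Scd1, Fasn, Scd2 and Acly was not tested.

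In the kidney table most members were positive. Of the 17 fatty acid members, 14 were positive and 3 negative, with a median log2 fold change of 0.53 against -0.01 for all 19630 tested genes. The implied means summed to 219469 in Ftsj1_DF and 161237 in WT. Of the 21 sterol members, 14 were positive and 7 negative, with a median of 0.17 and implied sums of 82329 in Ftsj1_DF and 71443 in WT. At an unadjusted p under 0.05, 3 sterol and 2 fatty acid members were higher, and 0 members passed the threshold in either direction in the DESeq2 test, against 1.21% of all genes on the higher and 0.866% on the lower side.

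Cyp51, the lanosterol demethylase, had implied means of 13011 in Ftsj1_DF and 8462 in WT, a log2 fold change of 0.62 ± 0.24 (SE) in the authors' deposited kidney table and an adjusted p of 0.187 in the DESeq2 test. Mvk was at 0.83 ± 0.39 and Lss at 0.94 ± 0.47 (SE) in the authors' deposited kidney table, with implied means for Lss of 377 in Ftsj1_DF and 197 in WT. In the fatty acid branch, Mlxipl had implied means of 1622 in Ftsj1_DF and 1069 in WT and Pnpla3 had 157 in Ftsj1_DF and 73.1 in WT. Their log2 fold changes in the authors' deposited kidney table were 0.60 ± 0.27 and 1.10 ± 0.54 (SE). Scd1 was at 0.60 ± 0.31, Fasn at 0.57 ± 0.36, Acly at 0.61 ± 0.34 and Thrsp at 0.53 ± 0.40 (SE) in the authors' deposited kidney table. Srebf1 had the opposite sign, with implied means of 3741 in Ftsj1_DF and 4532 in WT and a log2 fold change of -0.28 ± 0.32 (SE) in the authors' deposited kidney table. Insig1 was at 0.54 ± 0.30 and Srebf2 at 0.06 ± 0.34 (SE) in the authors' deposited kidney table.

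Beside the kidney values, 5 of 7 tested adipocyte markers were positive, with implied sums of 40635 in Ftsj1_DF and 35008 in WT. Proximal tubule markers were positive in 5 of 8 and B cell markers in 4 of 7. Hepatocyte markers were negative in 9 of 10, cardiomyocyte markers in 7 of 7, neuron markers in 7 of 8 and oligodendrocyte markers in 6 of 8. The medians of these last 4 lists were -0.46, -0.63, -0.48 and -0.61. All 3 tested markers of the adrenal cortex, a tissue that uses much cholesterol, were negative, with a median log2 fold change of -2.76 and implied sums of 385 in Ftsj1_DF and 5366 in WT. Of these, Star passed the threshold, and Mc2r was at 0 in all 5 tables. The part of any of these lists in the values of the members was not tested.

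The differences between tables were tested directly, gene by gene, as the difference of 2 log2 fold changes over its SE, with Benjamini-Hochberg adjustment over all genes tested in both tables. This takes the tables as independent, although 4 organs share mice, so the p-values are approximate. Between the brain-named and the kidney table, 4 of 38 members differed, and 1.30% of all 16656 genes did. All 4 were lower in the brain-named table. The difference, brain-named minus kidney, was -2.40 ± 0.57 for Thrsp (SE, adjusted p = 0.00771 by the z-test), -2.58 ± 0.64 for Lss (adjusted p = 0.0119), -2.09 ± 0.57 for Fasn (adjusted p = 0.0275) and -2.00 ± 0.55 for Acly (adjusted p = 0.0275). With each z rescaled to its robust spread the adjusted p was 0.126 for Thrsp, 0.157 for Lss and 0.241 for Fasn and Acly, so none of the 4 passed. Gpam stood just outside, at -2.02 ± 0.60 (SE, adjusted p = 0.0517), and Dhcr7 was at -2.17 ± 0.70 (SE, adjusted p = 0.0866). At an unadjusted p under 0.05, 14 of 38 members differed, as did 12.1% of all genes.

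Between the brain-named and the heart table, 1 of 36 members differed, Gpam with -2.08 ± 0.56 (SE, adjusted p = 0.0438 by the z-test, and 0.256 when rescaled), with a share of all genes of 0.452%. Between heart and kidney, 1 of 36 differed, Sqle with -2.41 ± 0.47 (SE, adjusted p = 5.3e-04 by the z-test, and 0.00475 when rescaled), with a share of all genes of 0.638%. No member passed in the other 7 pairs of tables, where the share of all genes was 0% for the brain-named and liver-named, 0.0534% for the brain-named and spleen, 0.165% for the heart and liver-named, 0.117% for the heart and spleen, 0.791% for the kidney and liver-named, 0.411% for the kidney and spleen and 0.0799% for the liver-named and spleen tables. At an unadjusted p under 0.05 by the z-test, 5, 6, 4, 3, 1, 1 and 0 members differed in those pairs, against 5.33%, 5.70%, 7.74%, 6.61%, 9.997%, 7.41% and 5.13% of all genes. For Thrsp the difference between the brain-named and the spleen table was -2.38 ± 0.61 (SE), with an adjusted p of 0.111 by the z-test.

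**Figure D4:**
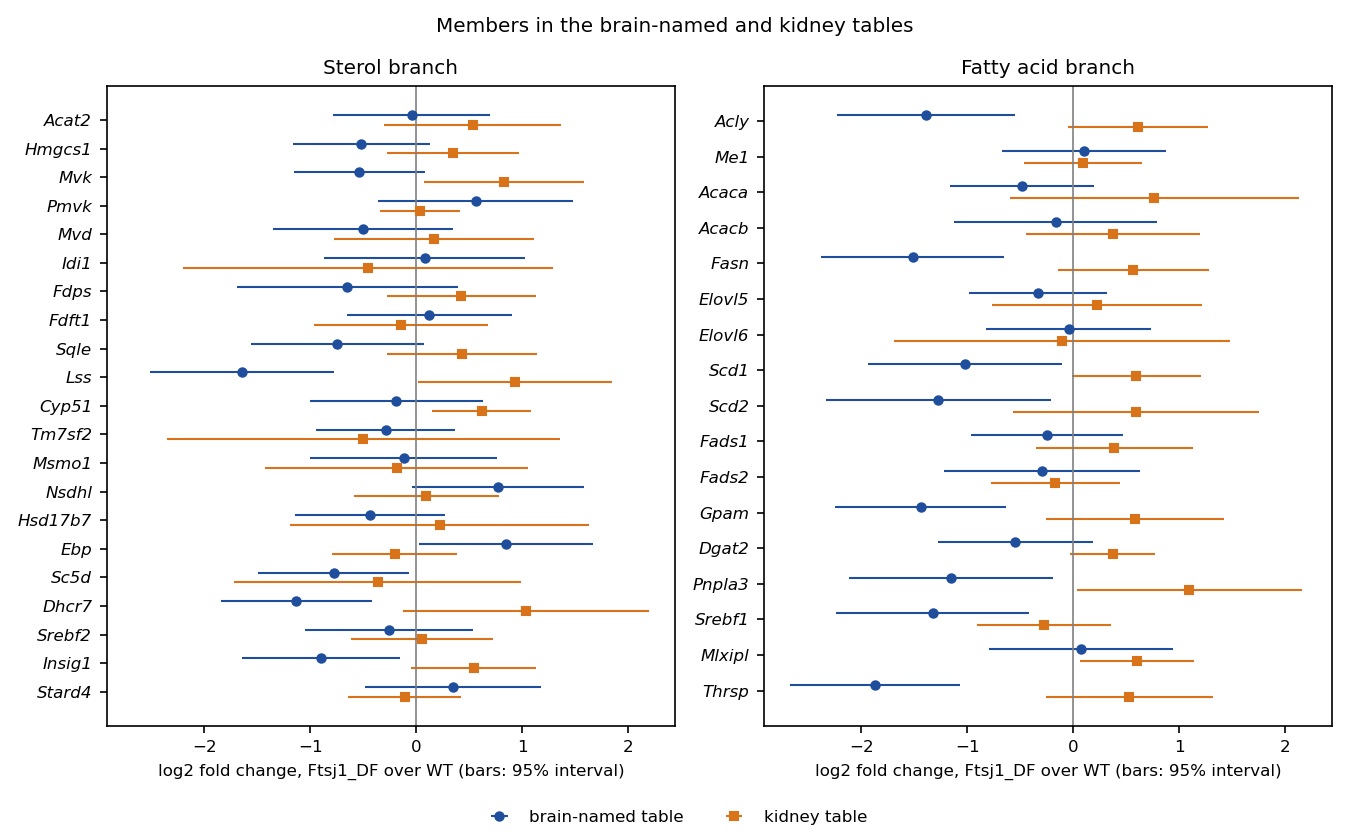
Log2 fold change, Ftsj1_DF over WT, of each member in the brain-named (circles) and kidney (squares) tables, with bars for the 95% interval. For Thrsp, Lss, Fasn and Acly the brain-named value is -1.39 or lower and the kidney value between 0.53 and 0.94, while the intervals of most other members overlap.

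The liver-named and the spleen table held no member past the threshold. In the liver-named table, 14 of 21 sterol and 10 of 17 fatty acid members were negative, with medians of -0.11 and -0.10 against -0.05 for all genes. Of all genes there, 0.0855% passed on the lower and 0.117% on the higher side. Nsdhl had implied means of 1924 in Ftsj1_DF and 1002 in WT, a log2 fold change of 0.94 ± 0.38 (SE) in the authors' deposited liver-named table and an adjusted p of 0.310 in the DESeq2 test. Pnpla3 had implied means of 87.6 in Ftsj1_DF and 192 in WT and a log2 fold change of -1.13 ± 0.50 (SE) in the authors' deposited liver-named table. The regulators were close to 0 or imprecise: Srebf1 was at 0.08 ± 0.43, Srebf2 at -0.12 ± 0.48, Insig1 at -0.23 ± 0.50 and Mlxipl at -0.82 ± 0.78 (SE) in the authors' deposited liver-named table. Of 8 oligodendrocyte markers there, 5 were negative, with a median of -0.26 and implied sums of 152237 in Ftsj1_DF and 179383 in WT, and their part in the values was not tested.

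In the spleen table the medians were -0.02 for 20 tested sterol and 0.03 for 17 fatty acid members, and 0.0953% of all genes passed on the lower and 0.121% on the higher side. Elovl6 had implied means of 1692 in Ftsj1_DF and 659 in WT and a log2 fold change of 1.36 ± 0.75 (SE) in the authors' deposited spleen table, with an adjusted p of 0.886 in the DESeq2 test. Nsdhl had implied means of 947 in Ftsj1_DF and 439.8 in WT and a log2 fold change of 1.11 ± 0.57 (SE) in the authors' deposited spleen table, with an adjusted p of 0.848 in the DESeq2 test. Idi1 had no p-value in spleen, at a mean of 13.5. Of the called members, Thrsp was at 0.51 ± 0.46, Lss at -1.35 ± 0.99 and Sqle at 0.02 ± 0.65 (SE) in the authors' deposited spleen table. The SEs in spleen leave a 95% interval for Thrsp of 0.762 to 2.65 times WT, so a fall of the size seen in the brain-named table lay outside it.

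The sign of most members changed between tables. Nsdhl was positive in all 5 tables, Pmvk, Mvd, Stard4, Me1 and Mlxipl were negative in 1, and Scd2 and 7 sterol members were negative in 4. Idi1 is among these 7, and its negative values include those of heart and spleen, which had no adjusted p. No member was negative in all 5. The comparisons of brain-named, heart, kidney and liver-named tables share their mice.

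Some members cannot be separated from other transcripts. In RefSeq, Fdft1 overlaps the protein-coding gene Ctsb, Tm7sf2 overlaps Vps51, Acaca overlaps Tada2a, Srebf1 overlaps Rai1 and Acat2 overlaps a pseudogene, and whether strand was used in counting is not given in the sources used here. None of the 3 members that passed a threshold, Thrsp, Lss and Sqle, overlaps a protein-coding gene there, while Lss overlaps the long noncoding RNA gene 4930483K19Rik.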

How the data were processed

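Degradome tags were measured in 32 libraries of 14 mice, grouped by the organ and genotype in the sample titles. The submitters' processing notes name GRCm39, featureCounts, Subread 2.0.3 and DESeq2. The DESeq2 version, its model and any strand setting are not given in the sources used here. The mean column of each deposited table is a signal, the average of the authors' normalized counts over an organ's libraries. The deposited fold changes and SEs are on the log2 scale. The Wald statistic, a score, was deposited too and was checked to be their quotient. Both the raw and the adjusted p-value were deposited by the authors. The tables hold no depth per library, so the SE is the only measure of precision. In each table, 1 row without a gene name was left out.

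No test per gene was run anew. Genes with an adjusted p are called tested, and a false discovery rate of 5% was used. Computed here were branch medians, implied genotype means, 95% intervals (1.96 SE), shares of the summed means, z-tests of differences between tables and motif matches in RefSeq promoters, in Python 3.11.15 with numpy 2.4.6, pandas 2.3.3 and scipy 1.17.1. The z-test was run on simulated data, drawn for each table independently as normal values with the deposited SEs. The simulated shift was larger than the differences called here, and shared mice were not simulated. That run therefore does not show how the test does on these tables. P-values measure the spread between libraries of an organ. The members and lists were chosen with earlier results of these data known. The named genes were Ftsj1, members past the threshold, the 3 members of smallest p per table and branch, and Srebf1, Srebf2, Insig1 and Mlxipl; other members are named to complete a step, a range or a comparison, after their values were seen. Alternatives were thresholds of 1% and 10%, joint adjustment of every gene that has a p-value, genes of mean 20 or more alone, a rescaled statistic and other scalings of levels.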

Additional observations from a re-analysis of the deposited data

Results flagged for a closer look

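For 6 members the genotype difference was unlike in 2 organs' tables by the z-test of the difference itself. The share of all genes that differed was 0.452% for brain-named and heart, 1.30% for brain-named and kidney and 0.638% for heart and kidney. With each z rescaled to its robust spread, 1 sterol difference, that of Sqle, and 0 fatty acid differences passed. Gpam, an acyltransferase of glycerolipid synthesis, was lower in the brain-named than in the heart table, with a difference of -2.08 on the log2 scale. Lss, Acly, Fasn and Thrsp were lower in the brain-named than in the kidney table, with differences of -2.58, -2.00, -2.09 and -2.40. Sqle was lower in the heart than in the kidney table, with a difference of -2.41. Each difference is the Ftsj1_DF over WT log2 fold change of the first table minus that of the second. Because 4 organs came from the same mice, the tables are not independent, and this test takes them as such.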

How the results depend on the processing

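No paired analysis was possible because the tables hold no columns per library, and for the same reason no library could be left out. At a false discovery rate of 1% the sterol members called in the brain-named table numbered 0 in place of 1, and they numbered 0 when every gene that has a p-value was adjusted together and 0 with the Wald statistic rescaled to its robust spread. The fatty acid members called there numbered 3 at 10% and 0 with the rescaled statistic, in place of 1. Differences between tables, called for 2 sterol and 4 fatty acid members, numbered 1 and 0 with the rescaled statistic. With that statistic Thrsp had an adjusted p of 0.0955 in the brain-named table and Sqle 7.66e-05 in heart. In 91 other cases a count stayed within 1.5 times its reported value or a branch median moved by less than the median SE of its members. Many of these are counts of 0 that stayed at 0, and some are medians that changed sign within that SE. The number of such cases therefore does not measure how firm the calls are. The branch medians ranged from -0.71 to -0.55 (fatty acid) and -0.33 to -0.29 (sterol) in the brain-named, and from 0.36 to 0.53 and 0.17 to 0.25 in the kidney table. Medians near 0 changed sign in heart (-0.07 to 0.12 sterol, -0.02 to 0.04 fatty acid), for sterol in the liver-named table (-0.11 to 0.05) and in spleen (-0.06 to 0.05 sterol, -0.01 to 0.11 fatty acid). Levels depend on a few abundant genes, and Idi1 and Lss are too low in heart for a comparison.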

Other observations

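Both X-linked members were read beside Ftsj1, which lies on the same chromosome. Ebp is separated from Ftsj1 by 1 protein-coding gene, Porcn, in the RefSeq order of genes, and its log2 fold change in the authors' deposited tables was 0.85 ± 0.42 for the brain-named, -0.25 ± 0.29 for heart, -0.20 ± 0.30 for kidney, 0.50 ± 0.50 for the liver-named and 0.86 ± 0.61 (SE) for the spleen table. None of these passed the threshold. Of the 20 protein-coding genes nearest to Ftsj1, 7 were tested in the brain-named, heart and kidney tables and 10 in the other 2, and DESeq2 called 0 in each. At an unadjusted p under 0.05 in the DESeq2 test, 1 of them, Tbc1d25, was lower in the brain-named table. The 1 that was higher there was Ebp itself. Of all genes in that table, 2.82% were lower and 8.03% higher at that p. In heart 1 of them, Wdr13, was higher, against 4.76% of all genes. Nsdhl lies 356 protein-coding genes away.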
